A study of Mus musculus with 4 samples.

Results

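The variable segments of the T cell receptor alpha chain are the 128 of 32285 gene rows whose symbol starts with Trav, and they were chosen by name alone, without any measured value. Their use was counted in intratumoral T cells from tumors with or without knockdown of B7-H3, an immune checkpoint protein encoded by Cd276. 105K cells, from a mouse kidney tumor and deficient in Tsc2 in both groups, were grown under the skin of male C57BL/6J mice aged 6 weeks. Control tumors carried a non-targeting hairpin (sh_NC) and knockdown tumors a hairpin against Cd276 (sh_B7-H3 (1)). The hairpins are in the tumor cells, not in the T cells that were sequenced, so the 1, 1, 2 and 2 Cd276 UMIs of the kept cells do not check the knockdown. Each group is a pool of 80 tumors, from which live CD3+ cells were sorted and run as 2 droplet libraries with surface tags (CITE-seq, 10x Genomics 3′ chemistry). The design text calls the libraries of a group duplicate lanes of a pool, whereas the study elsewhere calls them independent samples, and which holds was not settled here. They were taken as lanes, so every p-value between groups speaks of the spread between these libraries, which may be technical, and not of other mice. The same holds for p-values between classes of cells, for which each library served as a block. The tumor from which a cell came is not known.

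A T cell receptor alpha chain is encoded by a gene that is assembled in the thymus, where a Trav segment is joined to a joining (Traj) segment and then spliced to the constant exons (Trac). The Trav segment encodes most of the variable domain, with the first and second of the loops that contact peptide and MHC, and the third loop spans the joint. Because the locus rearranges on both chromosomes, a T cell can carry more than 1 alpha transcript. Cells descended from the same T cell share their segments, whereas a shared segment alone does not show common descent. In C57BL/6 mice the central part of the locus is repeated, and the repeated segments bear the letter d or n. Semi-invariant T cells use fixed segments, Trav11 in type I NKT cells and Trav1 in MAIT cells.

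All 128 segments lie on the plus strand of chromosome 14, between positions 52427928 and 53977678 of GRCm38, upstream of Trac at chr14:54220521-54224206. They form 23 families, with 55 segments without a letter, 39 with the letter d and 34 with the letter n, and 20 of the 128 are annotated as pseudogenes. The sequences on which the results turn are given as the coding part of the V exon, read from the GRCm38 genome with the GENCODE annotation, and capitals mark the bases at which the members of a set differ.

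The Trav16 set is shown because it holds the most counted segment of the series, Trav16n, and Trav16, which was called between the groups in CD4 Nkg7-high cells. Trav16 lies at chr14:53743406-53743705, Trav16d-dv11 at chr14:53047522-53047821 and Trav16n at chr14:53351322-53351621, each without the first bases of the exon. Over these 300 bases Trav16 differs from Trav16n at 4 positions, Trav16 from Trav16d-dv11 at 5, and Trav16d-dv11 from Trav16n at 3.
Trav16: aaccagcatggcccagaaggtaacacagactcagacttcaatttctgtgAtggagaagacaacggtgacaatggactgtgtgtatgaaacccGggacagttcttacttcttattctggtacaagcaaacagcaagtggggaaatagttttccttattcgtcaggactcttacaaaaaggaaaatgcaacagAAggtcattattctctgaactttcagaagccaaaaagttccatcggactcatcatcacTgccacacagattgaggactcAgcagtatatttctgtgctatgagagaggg
Trav16d-dv11: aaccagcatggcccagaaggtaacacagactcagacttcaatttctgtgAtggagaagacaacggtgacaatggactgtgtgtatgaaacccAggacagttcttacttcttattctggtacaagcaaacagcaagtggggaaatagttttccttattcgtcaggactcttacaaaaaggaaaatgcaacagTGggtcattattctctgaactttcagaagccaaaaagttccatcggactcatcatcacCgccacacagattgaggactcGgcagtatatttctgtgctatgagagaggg
Trav16n: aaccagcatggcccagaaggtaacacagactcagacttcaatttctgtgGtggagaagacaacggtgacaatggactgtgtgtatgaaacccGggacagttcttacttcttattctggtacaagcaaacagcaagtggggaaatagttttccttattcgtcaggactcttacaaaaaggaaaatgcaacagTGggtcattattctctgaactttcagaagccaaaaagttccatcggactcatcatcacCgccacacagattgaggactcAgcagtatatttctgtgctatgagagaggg

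The Trav13 set is shown because Trav13n-1 was called between the groups in CD4 Nkg7-high cells and Trav13-1 in CD8 Ccl5-high cells. The exons are at chr14:53545247-53545525 for Trav13-1, chr14:52851588-52851866 for Trav13d-1 and chr14:53162632-53162910 for Trav13n-1. Trav13-1 is told from Trav13n-1 by 12 of 279 bases, and Trav13d-1 from Trav13n-1 by a single base.
Trav13-1: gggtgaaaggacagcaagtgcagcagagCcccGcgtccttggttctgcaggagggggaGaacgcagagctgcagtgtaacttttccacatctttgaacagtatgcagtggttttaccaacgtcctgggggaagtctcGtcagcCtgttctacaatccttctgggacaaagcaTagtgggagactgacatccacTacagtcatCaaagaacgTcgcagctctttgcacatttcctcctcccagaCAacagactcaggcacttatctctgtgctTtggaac
Trav13d-1: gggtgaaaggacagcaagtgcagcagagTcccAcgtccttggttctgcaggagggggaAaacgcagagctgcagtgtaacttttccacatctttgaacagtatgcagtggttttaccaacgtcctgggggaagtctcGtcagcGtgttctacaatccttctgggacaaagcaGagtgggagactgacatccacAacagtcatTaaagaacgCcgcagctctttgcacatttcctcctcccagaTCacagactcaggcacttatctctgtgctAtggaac
Trav13n-1: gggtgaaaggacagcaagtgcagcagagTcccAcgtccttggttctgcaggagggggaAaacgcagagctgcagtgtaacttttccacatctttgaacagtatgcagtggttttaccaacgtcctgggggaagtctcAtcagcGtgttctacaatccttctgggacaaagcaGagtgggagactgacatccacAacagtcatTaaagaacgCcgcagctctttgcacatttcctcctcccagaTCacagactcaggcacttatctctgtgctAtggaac

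Trav7-3 and Trav7d-3 are shown because they were called in opposite directions in CD8 Ccl5-high cells. Their exons, at chr14:53443552-53443839 and chr14:52744553-52744840, differ at 2 of 288 bases, so that 29.6% of the 90-base windows of each are found in no other segment.
Trav7-3: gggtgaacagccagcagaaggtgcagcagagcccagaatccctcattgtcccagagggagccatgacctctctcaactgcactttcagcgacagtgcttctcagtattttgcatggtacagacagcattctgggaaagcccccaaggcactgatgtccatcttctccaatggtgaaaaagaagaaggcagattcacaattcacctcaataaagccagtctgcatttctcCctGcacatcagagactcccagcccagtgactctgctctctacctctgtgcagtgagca
Trav7d-3: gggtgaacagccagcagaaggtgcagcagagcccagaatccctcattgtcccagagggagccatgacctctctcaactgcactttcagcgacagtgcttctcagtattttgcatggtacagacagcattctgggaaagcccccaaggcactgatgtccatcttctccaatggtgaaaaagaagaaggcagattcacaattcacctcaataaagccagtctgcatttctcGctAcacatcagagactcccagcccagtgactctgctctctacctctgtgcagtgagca

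The Trav14 set is shown because the share of its family differed between the classes of CD4 cells. Trav14-3 lies at chr14:53763395-53763694, Trav14d-3-dv8 at chr14:53078746-53079045 and Trav14n-3 at chr14:53370276-53370575, again without the first bases of the exon, and over 300 bases Trav14d-3-dv8 differs from Trav14-3 at 8 positions and from Trav14n-3 at 10.
Trav14-3: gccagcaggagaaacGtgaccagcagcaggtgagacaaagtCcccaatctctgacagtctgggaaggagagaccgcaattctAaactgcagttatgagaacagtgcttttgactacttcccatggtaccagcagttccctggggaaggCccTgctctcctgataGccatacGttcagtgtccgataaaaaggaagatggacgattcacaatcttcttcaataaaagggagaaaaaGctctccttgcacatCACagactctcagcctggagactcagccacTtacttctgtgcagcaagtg
Trav14d-3-dv8: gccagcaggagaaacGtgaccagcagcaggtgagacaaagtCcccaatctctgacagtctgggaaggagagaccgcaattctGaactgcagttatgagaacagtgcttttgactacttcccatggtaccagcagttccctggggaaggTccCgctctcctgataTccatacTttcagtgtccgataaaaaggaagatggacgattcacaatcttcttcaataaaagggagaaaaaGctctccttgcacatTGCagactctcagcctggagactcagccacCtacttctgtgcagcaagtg
Trav14n-3: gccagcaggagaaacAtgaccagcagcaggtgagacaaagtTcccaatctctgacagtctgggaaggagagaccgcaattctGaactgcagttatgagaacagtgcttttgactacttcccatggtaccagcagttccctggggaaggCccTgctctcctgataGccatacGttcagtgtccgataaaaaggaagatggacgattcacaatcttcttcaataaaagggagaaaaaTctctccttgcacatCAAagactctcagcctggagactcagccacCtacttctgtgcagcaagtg

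Of the 128 segments 85 had at least 1 UMI in the analysed cells, 43 had none and 59 had fewer than 10. Together they gave 8836 UMIs, of which the 10 most counted segments held 3928 (44.5%). These were Trav16n (825 UMIs in 471 cells), Trav16 (607 in 354), Trav3-3 (442 in 331), Trav14d-3-dv8 (436 in 370), Trav6-7-dv9 (388 in 267), Trav13-1 (314 in 167), Trav14-2 (264 in 174), Trav4-4-dv10 (248 in 123), Trav5-4 (203 in 137) and Trav7d-3 (201 in 114). By family, the 3 segments of Trav16 gave 1529 UMIs and the 9 of Trav14 gave 1208, followed by Trav6 (893), Trav13 (878) and Trav7 (827), whereas Trav18 and Trav23, with 1 segment each, gave 1 UMI each. Per 100 bases of V exon the most counted segments ranged from 69.8 UMIs for Trav5-4 and Trav7d-3 to 271 for Trav16n.

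Segments with no sequence of their own had few UMIs. Among the segments that are not pseudogenes, 34 had a V exon identical to that of another segment. In 37 segments no 90-base window was unique, and 4 of these had UMIs, 17 in all. The 7 segments with some, but under 20%, unique windows all had UMIs, 167 together, and among them Trav6-5 (69 UMIs) and Trav6-3 (58 UMIs) were near the median of 68 of the segments in which every window was unique. All 42 segments with 20% to under 100% unique windows had UMIs (5927 in all), as did 21 of the 22 in which every window was unique (2541 UMIs). The 50 of 55 segments without a letter that were seen gave 5808 UMIs, against 1315 for 19 of the 39 with the letter d and 1713 for 16 of the 34 with the letter n. A segment with no sequence of its own could hardly be counted, so its absence here says nothing about its use, and values of near copies are uncertain.

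**Figure D1:**
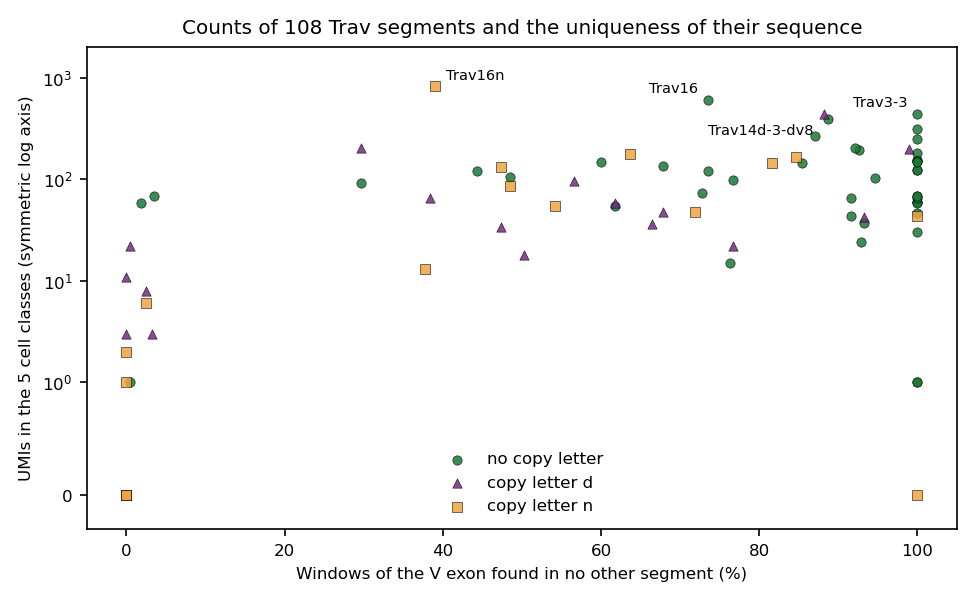
Each point is 1 of the Trav segments that are not pseudogenes, with the share of its 90-base V exon windows found in no other segment (x axis, %) against its UMIs in the analysed cells (y axis, symmetric log scale), colored by copy letter. Segments with no unique window lie at or near 0 UMIs, and Trav16n leads with 825 UMIs although 39.1% of its windows are unique.

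The libraries are named control 1, control 2, knockdown 1 and knockdown 2, and values below follow that order. They held 7030 to 12112 called barcodes, 3451 to 7338 kept cells with median depths of 6601 to 8482 UMIs, and 2147 to 5011 cells in the classes used here. CD4 cells had at least 1 Cd4 UMI and no Cd8a or Cd8b1 UMI, and CD8 cells at least 3 UMIs of Cd8a and Cd8b1 and no Cd4 UMI. CD4 cells with a Foxp3 UMI formed the Foxp3 class (regulatory T cells express this factor), and the others were divided at 3 UMIs of Nkg7, a cytotoxic granule protein. CD8 cells were divided at 20 UMIs of Ccl5, a chemokine of effector cells. No Trav row entered these rules. All 4 T cell markers (Cd3d, Cd3e, Cd3g and Trac) were present in every class of every library. Between 17 and 35 barcodes were shared by any pair of libraries. The 2 libraries of a group differed in segment use by about the sampling noise, with chi-square values per degree of freedom of 0.36 to 1.20 over 1 to 44 segments. The check is weak where few segments had enough cells, 1 in control CD4 Nkg7-high and 3 in knockdown CD4 Nkg7-low cells, and in the Foxp3 class none had. Over all genes in all kept cells, where differences are easier to detect, the values were 2.09 and 2.76.

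Among 14300 cells of the 5 classes, 5030 (35.2%) had at least 1 Trav UMI, and 3018 of these had exactly 1. The chemistry primes at the 3′ end of the transcript while the V segment lies at its 5′ end, and the most UMIs in a cell were 14. Free RNA was looked for in cells of other types. Of 177 cells with macrophage markers and no Cd3 UMI, none had a Trav UMI, which allows a share of up to 1.69%, at a median depth of 1903 UMIs, and none of 11 B cell-marked cells did. Barcodes with at most 50 UMIs held Trav at 56.8 to 64.3 CPM (UMIs scaled to a common total of RNA UMIs, over the cells or barcodes summed), close to the levels of the cells, but their mean content was 1.94 to 2.04 UMIs of any gene.

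The share of cells with a Trav UMI and the summed level were both higher in knockdown than in control CD8 cells. In CD8 Ccl5-high cells 27.3%, 31.8%, 39.4% and 37.3% of cells had a Trav UMI, and the control and knockdown libraries did not overlap. Thinned to 2000 UMIs per cell, which left out 0 to 3 cells per library, the shares were 11.5%, 13.1%, 17.9% and 16.9%. Over all CD8 cells the summed Trav level was 58.7 ± 1.18 CPM in control and 86.7 ± 3.59 in knockdown libraries (SD, n = 2 each). The ratio was 1.48, and p was 0.33, the smallest that an exact two-sided permutation test of 2 against 2 libraries can give. Ccl5-high cells were 421 of 3131, 466 of 2729, 843 of 1323 and 1103 of 1808 CD8 cells. Within the Ccl5-high class the level was 75.7, 69.6, 109 and 103 CPM, and within the Ccl5-low class 57.6, 56.1, 63.9 and 62.3. For CD4 cells the level was 82.4 ± 0.65 in control and 96.7 ± 4.08 in knockdown libraries (SD, n = 2 each). Their ratio of 1.17 had the same exact permutation p of 0.33.

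Trac, which encodes the constant part of the same transcripts, was lower in knockdown cells within 4 of the 5 classes. Over all CD8 cells it was higher, at 589, 602, 659 and 642 CPM, and over all CD4 cells it was mixed, at 800, 818, 821 and 761 CPM. In CD4 Nkg7-high cells it fell from 1430 and 1336 to 954 and 893 CPM (log2 fold change -0.51, SE 0.06, edgeR adjusted p = 1.05e-05), and in CD8 Ccl5-high cells from 949 and 964 to 816 and 800 (log2 fold change -0.22, SE 0.04, edgeR adjusted p = 6.63e-05). It was also lower in CD4 Nkg7-low and CD8 Ccl5-low cells (log2 fold changes -0.23 and -0.19, edgeR adjusted p = 3.47e-05 and 1.75e-05), whereas in Foxp3 cells the change was 0.01 (SE 0.09). Trbc1, a constant gene of the beta chain, rose in knockdown CD8 Ccl5-high cells (log2 fold change 0.82, SE 0.05, edgeR adjusted p = 3.7e-17). Trdc, the constant gene of the delta chain, was also called higher there, at 9.30, 14.8, 34.6 and 24.3 CPM (log2 fold change 1.26, SE 0.19, edgeR adjusted p = 5.35e-06). The 4 gamma-delta marker genes measured, none of them at 0, summed to 228, 254, 298 and 276 CPM in this class, and their part in the Trav values was not tested. Set against Trac, Trav was higher in both knockdown libraries of all 5 classes. Per 1000 Trac UMIs there were 58.3, 63.0, 107 and 99.6 Trav UMIs in CD4 Nkg7-high cells and 79.8, 72.2, 133 and 129 in CD8 Ccl5-high cells. The summed level of 5 myeloid genes was higher in both knockdown libraries of these classes, with 38.9, 53.4, 161 and 194 CPM in CD4 Nkg7-high cells and 167, 313, 336 and 441 in CD8 Ccl5-high cells, but not in Foxp3 cells, with 194, 145, 149 and 847, and macrophage-marked cells held no Trav UMI. The classes also differed between the groups in effector transcripts. The 4 effector genes, which include Nkg7 and Ccl5 themselves, summed to 20131, 20685, 25887 and 25767 CPM in CD8 Ccl5-high, 25736, 25908, 21605 and 21110 in CD4 Nkg7-high and 50.9, 48.0, 263 and 335 in CD4 Nkg7-low cells. No effector gene was at 0 in any library of these classes. Ccl5 made up most of each sum, and not all members moved with it. In CD8 Ccl5-high cells Nkg7 rose too, but Gzmb was at 436, 402, 234 and 298 CPM and Gzmk at 357, 327, 298 and 306. In CD4 Nkg7-high cells Nkg7 rose, at 4885, 4741, 5455 and 5295 CPM, while the other members fell. In CD4 Nkg7-low cells Gzmb fell while the other members rose. The part of the myeloid and effector genes in the Trav values was not tested.

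**Figure D2:**
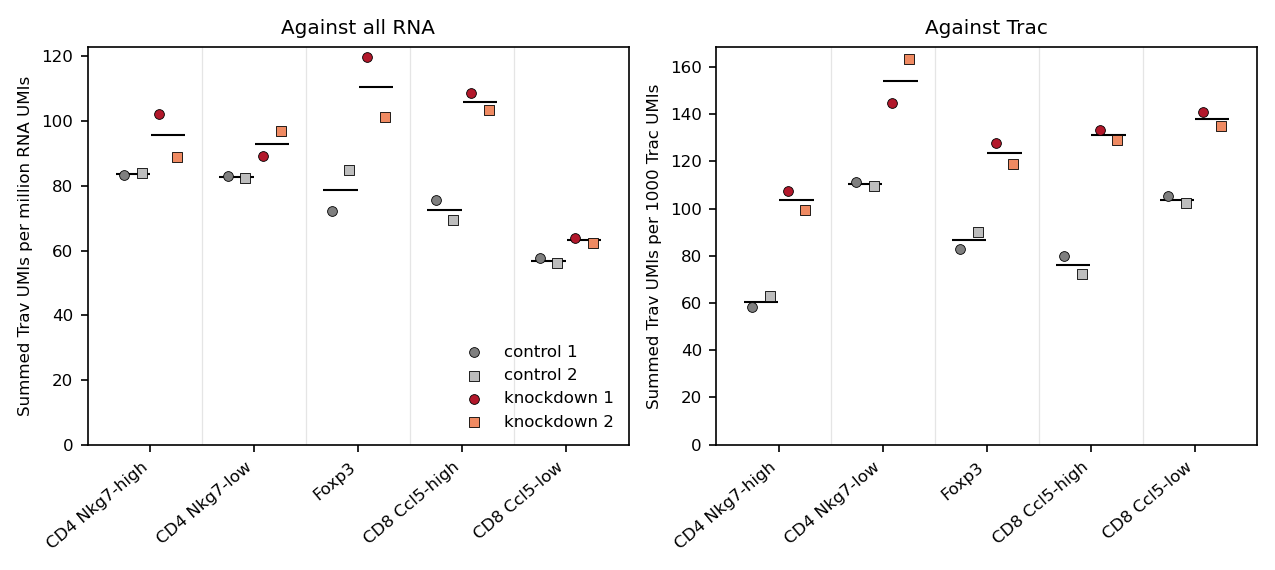
Summed Trav level in CPM (left) and per 1000 Trac UMIs (right) in each of the 5 cell classes, with 1 point per library and bars at the mean of the 2 libraries of a group. On the right, both knockdown libraries lie above both control libraries in every class, as for CD4 Nkg7-high cells with 107 and 99.6 against 58.3 and 63.0.

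In CD4 Nkg7-high cells, the CD4 cells with cytotoxic transcripts, Trav16, Trav13n-1 and Trav13-4-dv7 had UMIs in both knockdown libraries and in neither control library. Trav16 was found in 0, 0, 26 and 31 cells, with 0, 0, 47 and 57 UMIs. Trav13n-1 was found in 0, 0, 16 and 16 cells (0, 0, 51 and 39 UMIs), and Trav13-4-dv7 in 0, 0, 13 and 13 cells (0, 0, 26 and 23 UMIs). These cells are part of 45, 40, 131 and 164 CD4 Nkg7-high cells with any Trav UMI. These zeros hold for this class and the cell rules used.

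With a floor of 3 UMIs over both control libraries, Trav16 was at least 10.8-fold higher in knockdown cells in CPM (edgeR quasi-likelihood test, adjusted p = 4.09e-05), Trav13n-1 at least 9.38-fold (adjusted p = 0.000247) and Trav13-4-dv7 at least 5.11-fold (adjusted p = 0.00329). These sizes depend on how cells are assigned. With lineage taken from the CD4 and CD8b tags the log2 fold changes were 2.47 for Trav16, 1.68 for Trav13n-1 and 2.23 for Trav13-4-dv7, all below these bounds, and the segments were still called (edgeR adjusted p = 0.000207, 0.0391 and 0.0397). As a share of Trav-positive cells Trav16 was 19.8% and 18.9% in the knockdown libraries, at least 5.47-fold more than in control. Only 4 of the 128 segments passed the filter on low counts, 3 of them through the knockdown libraries alone, and 3 were called at an adjusted p under 0.05 and a log2 fold change of 1 or more, where 1.03% of the 8841 genes tested were called. As these 3 were let in by the group in which they are high, their count does not support a difference. The remaining one was Trav3-3, by cells the most used segment of both control libraries, with 14.4, 8.90, 7.26 and 6.56 CPM (log2 fold change -0.66, SE 0.40, edgeR adjusted p = 0.467). Without the filter 6 of 59 segments were called, where 0.939% of genes were, among them Trav7d-4, which was found in 0, 0, 13 and 11 cells and was singled out after its values were seen.

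The near copies of Trav16 and Trav13n-1 were found in few of these cells. Trav16n was found in 0, 2, 0 and 0 CD4 Nkg7-high cells, with 20 UMIs in these 2 cells, and Trav16d-dv11 in 0, 0, 1 and 0. Summed by family, 1 of 6 families was called, where 1.03% of rows were. Over its 3 segments, the Trav16 family had a log2 fold change of 0.79 (SE 0.49) and was not called (edgeR adjusted p = 0.474). Trav13d-1, a single base away from Trav13n-1, was in 0, 0, 1 and 1 cells. Trav13d-4, of the same family as Trav13-4-dv7, was in 0, 0, 3 and 2 cells, with 10 and 5 UMIs in the knockdown libraries. The Trav13 family, in 3, 2, 40 and 41 cells, was called (log2 fold change 2.87, SE 0.41, edgeR adjusted p = 6.93e-05). It met the filter in both knockdown libraries but not in both control libraries, and it sums segments already named. Its call therefore does not support a difference either. In CD4 Nkg7-low cells Trav16 was in 18, 13, 2 and 3 cells and Trav13n-1 in 4, 3, 1 and 1, and in Foxp3 cells Trav16 was in 4, 4, 3 and 1. The control tumors thus held both segments outside the Nkg7-high class. A test added after the data were seen compared the knockdown change between classes. Between the Nkg7 classes it called Trav16 (edgeR interaction test, adjusted p = 6.06e-06, where 0.902% of genes were called) and Trav13n-1 (adjusted p = 0.029). Both met its filter through the knockdown Nkg7-high libraries, in which they are high, and had no UMI in control Nkg7-high cells. The same test called 2 of 22 segments between the CD8 classes (1.53% of genes), 6 of 17 between CD4 Nkg7-high and CD8 Ccl5-high cells (0.54% of genes) and none of 6 between Foxp3 and CD4 Nkg7-low cells (0.198% of genes, with 1 segment at an unadjusted p under 0.05 in edgeR). As the filter was open to segments through the libraries in which they are high, these calls do not support a difference.

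The 3 segments often shared cells. Of the 57 Trav16 cells in the knockdown CD4 Nkg7-high class, 18 also held Trav13-4-dv7 (10 and 8 per library) and 17 held Trav13n-1 (8 and 9 per library), and no cell held Trav13-4-dv7 together with Trav13n-1. Hence 35 of 57 Trav16 cells also held 1 of these Trav13 segments, and 18 of 26 Trav13-4-dv7 cells and 17 of 32 Trav13n-1 cells also held Trav16. Altogether 80 cells held at least 1 of the 3 segments, 28.2% and 26.2% of the Trav-positive cells of the knockdown libraries. The called segments are therefore not independent observations. On GRCm38 Trav16 and Trav13-4-dv7 lie 477 and 463 kb before Trac, and Trav13n-1 lies 1058 kb before it. Among all pairs of segments, these 2 were the only ones to reach 5 cells in this class.

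The share of Trav-positive cells with UMIs of more than 1 segment was 4.44%, 12.5%, 22.9% and 19.5% in CD4 Nkg7-high cells. The part of droplets with more than 1 cell in this was not tested beyond the following values. The median depth was 5416 UMIs in the cells with Trav16 and Trav13-4-dv7 and 7378 in those with Trav16 and Trav13n-1, against 6717 in the class, and 12 of 18 and 13 of 17 remained when doublets were removed at the stricter Otsu threshold. Among barcodes that failed a filter, 40.4% of the Trav-positive ones had more than 1 segment.

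The beta chain segments of these cells were read where counted. Of the 11 cells with Trav16, Trav13n-1 and a Trbv UMI, 10 held Trbv2, whereas of the 3 with Trav16, Trav13-4-dv7 and a Trbv UMI none did. In cells with exactly 1 Trav and 1 Trbv segment, Trav13n-1 went with Trbv2 in 7 of 8 cells, Trav9-4 in 5 of 5 (0, 0, 3 and 2 per library) and Trav3-3 in 16 of 24, while 40 of all 101 such CD4 Nkg7-high cells had Trbv2. The Trav3-3 and Trbv2 cells were found in all libraries, at 1, 1, 5 and 9, and Trav6-3 went with Trbv13-1 in 6 of 7 cells, at 1, 0, 1 and 4. These pairings are descriptions without a test, and Trav6-3 and Trav9-4 were named after their values were seen.

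**Figure D3:**
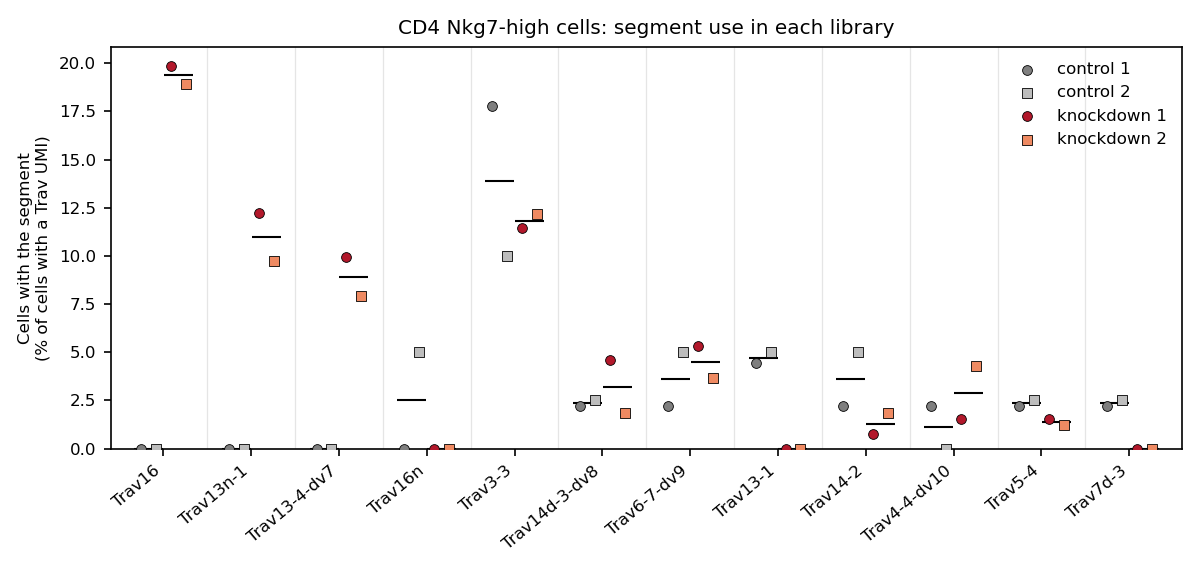
Share of Trav-positive CD4 Nkg7-high cells with each segment (y axis, %) in each library, with bars at the mean of the 2 libraries of a group, for the 3 called segments and then the other segments among the 10 most counted of the series. Trav16, Trav13n-1 and Trav13-4-dv7 lie at 0 in both control libraries, and Trav16 is at 19.8% and 18.9% in the knockdown libraries.

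In CD8 Ccl5-high cells Trav7d-3 and Trav8d-2 were counted in all 4 libraries and were higher in both knockdown libraries. Of the 16 segments that passed the filter 9 were called, 8 higher and 1 lower, where 2.17% of the 9950 genes tested were called, 1.22% higher and 0.955% lower. The filter asks for a minimum level in at least 2 libraries, and the 8 segments called higher met it in both knockdown libraries but not in both control libraries, while the one called lower met it in control alone. These segments were thus let in by the group in which they are high, and their count does not support a difference. Trav7d-3 was found in 4, 1, 20 and 35 cells, at 1.33, 0.303, 6.68 and 8.40 CPM (log2 fold change 3.25, SE 0.48, edgeR adjusted p = 2.75e-06). Trav8d-2 was in 2, 3, 18 and 19 cells, at 1.33, 0.908, 6.15 and 8.40 CPM (log2 fold change 2.73, SE 0.44, edgeR adjusted p = 1.17e-05). Control and knockdown libraries did not overlap for either segment. Trav13-2 had 0, 0, 17 and 29 UMIs in 0, 0, 12 and 19 cells and was at least 7.34-fold higher in knockdown cells in CPM (edgeR adjusted p = 2.53e-05).

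Trav21-dv12 and Trav14-1 rested on fewer cells. Trav21-dv12 was in 0, 2, 12 and 15 cells (log2 fold change 2.64, SE 0.60, edgeR adjusted p = 0.00157) and Trav14-1 in 2, 0, 16 and 11 (log2 fold change 2.58, SE 0.60, edgeR adjusted p = 0.00201). Each lost its call in 2 of the 4 fits that left out 1 library. Trav13-1 was in 3, 3, 18 and 21 cells (log2 fold change 1.93, SE 0.42, edgeR adjusted p = 0.000922). The other called segments, Trav12-3 and Trav6n-6, had log2 fold changes of 2.27 and 1.35. The 9 segments were picked by their call, so a lack of overlap between the groups adds no support for them.

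Trav7-3, which differs from Trav7d-3 at 2 bases, was the segment that fell, from 6 and 8 cells in control to 2 and 4 cells in knockdown libraries (2.33, 2.42, 0.351 and 0.533 CPM, log2 fold change -2.30, SE 0.62, edgeR adjusted p = 0.0088). Its 21 UMIs make it the least counted of the called segments. The Trav7 family rose (log2 fold change 1.12, SE 0.28, edgeR adjusted p = 0.00395), as did Trav13 (2.02), Trav14 (1.31), Trav8 (1.28) and the single segment of Trav21 (2.64), and Trav4 fell by 1.10 on the log2 scale, so 6 of 13 families were called where 2.14% of rows tested were. The Trav21 family met the filter in the knockdown libraries alone, as its only segment did, so its call does not support a difference. Trav16n, the most used segment of the class, was at 14.3, 10.6, 21.4 and 12.5 CPM and did not pass (log2 fold change 0.44, edgeR adjusted p = 0.227). Trav16 was at 6.31, 3.33, 7.73 and 8.93 (log2 fold change 0.84, edgeR adjusted p = 0.0568).

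**Figure D4:**
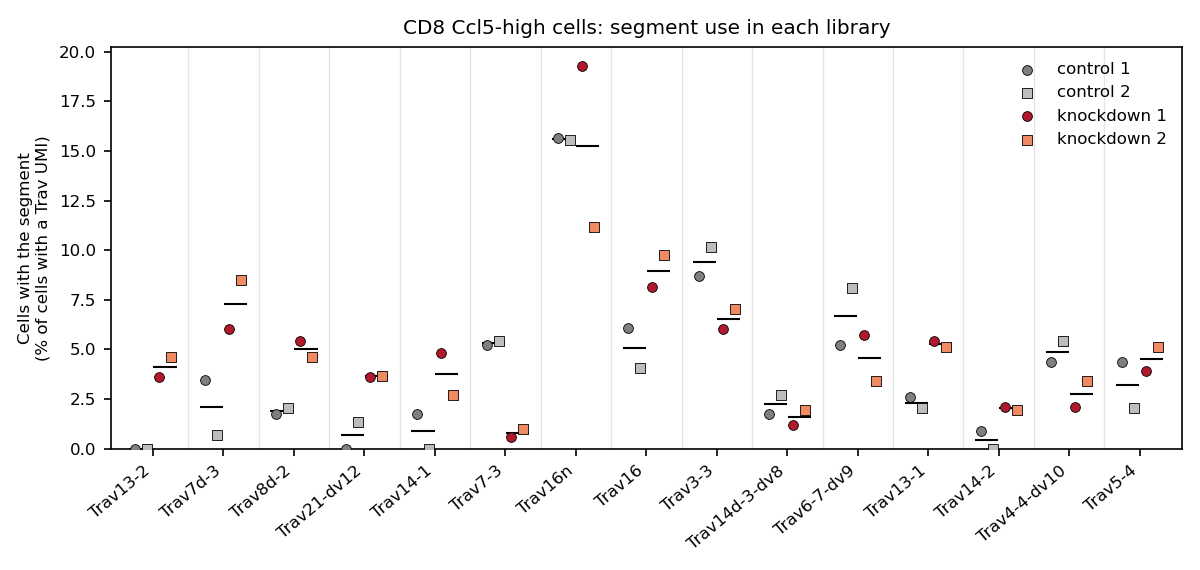
Share of Trav-positive CD8 Ccl5-high cells with each segment (y axis, %) in each library, with bars at the mean of the 2 libraries of a group, for the called segments named by rule and then the most counted segments. Trav7d-3 and Trav8d-2 are higher in both knockdown libraries, Trav7-3 is lower, and Trav16n overlaps between the groups.

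In 4 of the raised CD8 segments a particular beta segment recurred. Among the 264 CD8 Ccl5-high cells with exactly 1 Trav and 1 Trbv segment, Trav8d-2 went with Trbv15 in 12 of 16 cells, while 21 cells of the class had Trbv15. Trav7d-3 went with Trbv14 in 9 of 15 (16 in the class), Trav13-2 with Trbv16 in 8 of 11 (22 in the class) and Trav13-1 with Trbv17 in 7 of 14 (16 in the class). These 4 pairs were seen in 5 and 7, 2 and 7, 2 and 6, and 4 and 3 cells of the knockdown libraries and in no control cell of the class, which had 25 and 38 cells with such a pair of segments in control against 89 and 112 in knockdown libraries. The alpha segments themselves were in few or no control cells of the class, too few for the absence of the pairs to show a difference. Over all CD8 cells, 1 cell of control 2 had Trav13-2 with Trbv16. Trav16n went with Trbv2 in 16 of 43 cells (30 in the class), and this pair was present in all libraries, at 3, 2, 5 and 6.

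Pairs of alpha segments were also seen in single CD8 cells. In knockdown Ccl5-high cells Trav12-3 shared 8 cells with Trav5-4, of 26 and 34 cells with each, and Trav14-1 shared 7 cells with Trav16, of 27 and 67. Neither pair was seen in control Ccl5-high cells, which held only 4 Trav12-3, 8 Trav5-4, 2 Trav14-1 and 13 Trav16 cells, too few for the absence to show a difference. Trav16d-dv11 shared 9 of its 14 knockdown Ccl5-high cells with Trav16n, and 15 of its 46 Ccl5-low cells of all libraries, and these are the copies that differ at 3 of 300 bases. Counts of Trav16d-dv11 in cells with Trav16n are therefore uncertain.

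Few segments were called between the groups in CD4 Nkg7-low and CD8 Ccl5-low cells, and in Foxp3 cells only 1 was tested. In CD4 Nkg7-low cells 1 of 17 segments was called, where 0.793% of 10208 genes were. It was Trav14-2, at 3.83, 3.63, 5.88 and 9.02 CPM (log2 fold change 1.11, SE 0.31, edgeR adjusted p = 0.0274), and the call was lost in 10 of 19 alternatives, among them 3 of the 4 fits without 1 library (without control 1, control 2 or knockdown 2). In CD8 Ccl5-low cells edgeR called none of 29 segments, where 2.04% of 11121 genes were called, with 3 at an unadjusted p under 0.05 and none called by DESeq2. In Foxp3 cells the only segment tested, Trav16n, was at 2.83, 8.72, 10.5 and 13.8 CPM and was not called by edgeR, where 0.62% of 7740 genes were, although it had an unadjusted p under 0.05, and DESeq2 called none. Without the filter on low counts 4 of 78 segments were called in CD4 Nkg7-low cells (0.697% of genes), 2 of 80 in CD8 Ccl5-low cells (1.55% of genes), 10 of 65 in CD8 Ccl5-high cells (1.55% of genes) and, by edgeR, none of 66 in Foxp3 cells (0.048% of genes). Summed by family, none of 13 families was called by edgeR in CD4 Nkg7-low cells, with 4 at an unadjusted p under 0.05 (0.784% of rows called), 1 of 4 in Foxp3 cells (0.633%) and 1 of 16 in CD8 Ccl5-low cells (2.06%). Trav9 rose in Foxp3 cells (5.66, 1.45, 9.21 and 21.9 CPM in 8, 2, 4 and 10 cells, log2 fold change 2.15, SE 0.56, edgeR adjusted p = 0.0293), and Trav15 in CD8 Ccl5-low cells (1.86, SE 0.51, edgeR adjusted p = 0.0156). Both families met the filter in both knockdown libraries but not in both control libraries. They were thus let in by the group in which they are high, and their calls do not support a difference. By cells the groups overlapped for Trav9.

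In both groups the Trav14 family took a larger share of Trav-positive CD4 Nkg7-low cells than of Nkg7-high or Foxp3 cells. It was found in 28.1%, 28.0%, 22.4% and 35.2% of Trav-positive CD4 Nkg7-low cells, against 8.89%, 15.0%, 5.34% and 6.1% of Nkg7-high cells and 19.1%, 9.38%, 7.55% and 11.3% of Foxp3 cells. Its level was lower in Nkg7-high than in Nkg7-low cells by a log2 fold change of -2.68 (SE 0.23, edgeR with library as a block, adjusted p = 4.45e-09), and lower in Foxp3 than in Nkg7-low cells by -1.83 (SE 0.24, adjusted p = 9.59e-08). No library of the lower class overlapped the Nkg7-low libraries in either comparison. The family met the filter on low counts in every Nkg7-low library, but not in every Nkg7-high or Foxp3 library. It was thus let in by the class in which it is high, and these calls do not support a difference.

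Trav14d-3-dv8 was the most counted segment of the family. It was in 91, 69, 11 and 27 Nkg7-low cells, at 8.55, 8.01, 6.33 and 11.6 CPM, in 1, 1, 6 and 3 Nkg7-high cells, at 1.11, 1.98, 2.18 and 0.895, and in 5, 2, 0 and 2 Foxp3 cells. The log2 fold changes were -2.88 (SE 0.39, edgeR adjusted p = 2.76e-06) for Nkg7-high and -2.37 (SE 0.40, edgeR adjusted p = 1.1e-05) for Foxp3 against Nkg7-low cells. Trav14-2 was also lower in Nkg7-high cells (log2 fold change -2.66, SE 0.46, edgeR adjusted p = 4.88e-05). They were 2 of 5 segments called between the Nkg7 classes, where 20.6% of 9380 genes were called, and 1 of 1 between Foxp3 and Nkg7-low cells, where 10.5% of 8390 were. The share of all genes called between the Nkg7 classes was thus high, and a call there sets a segment less apart. Trav14d-3-dv8 and Trav14-2 also met the filter on low counts through the Nkg7-low libraries, the class in which they are high. Their calls against Nkg7-high or Foxp3 cells therefore do not support a difference. Summed by family, 3 of 10 families were called between the Nkg7 classes (20.6% of rows), 1 of 11 between the Ccl5 classes (16.6%) and 1 of 7 between Foxp3 and Nkg7-low cells (10.5%). Without the filter on low counts the calls were 17 of 79 (15.0% of genes), 7 of 81 (12.8%) and 3 of 80 (8.14%), and between CD8 and CD4 cells 19 of 85 (4.77%).

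**Figure D5:**
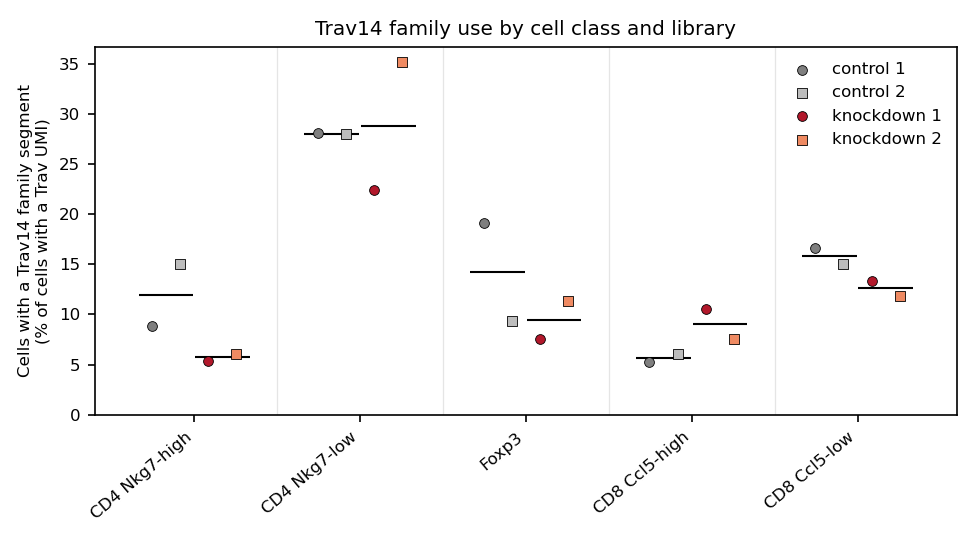
Share of Trav-positive cells with a Trav14 family segment (y axis, %) in each class and library, with bars at the mean of the 2 libraries of a group. CD4 Nkg7-low cells lie at 22.4% to 35.2%, above every library of the CD4 Nkg7-high and Foxp3 classes, which lie at 5.34% to 19.1%.

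Between CD8 and CD4 cells 9 of 33 segments were called, 3 higher and 6 lower in CD8, where 5.58% of 11441 genes were called, 1.76% higher and 3.82% lower. Trav16n was at 6.82, 6.26, 15.3 and 10.5 CPM in CD8 and 3.57, 5.91, 2.97 and 2.46 in CD4 cells (log2 fold change 1.28, SE 0.29, edgeR adjusted p = 0.00735), and its copy Trav16d-dv11 was also higher in CD8 cells (1.55, SE 0.38, edgeR adjusted p = 0.0117). Trav14d-3-dv8 was at 2.49, 2.43, 2.09 and 1.28 in CD8 and 7.62, 6.84, 3.49 and 5.60 in CD4 cells (log2 fold change -1.37, SE 0.18, edgeR adjusted p = 0.000327). Trav14-2, Trav10 and Trav7-4 were lower in CD8 cells with log2 fold changes of -1.09, -1.11 and -1.09, and for these segments no CD8 library overlapped a CD4 library. The calls of Trav10 and Trav7-4 were lost without 1 library in 2 and 3 of the 4 such fits. Trav8d-2, Trav14-3 and Trav14n-3 were called although the libraries overlapped, with log2 fold changes of 1.38, -1.11 and -1.11. Trav16d-dv11 averaged 0.393 CPM in CD4 cells, and Trav10, Trav7-4 and Trav14-3 averaged 0.544, 0.713 and 0.728 in CD8 cells. These means are below the minimum level of the filter on low counts. The class in which these segments are high thus helped to let them in. Their calls, and the count of 9, therefore do not support a difference. Summed by family none of 15 families was called by edgeR, where 5.5% of rows were, with 10 at an unadjusted p under 0.05, and Trav16 (log2 fold change 0.86, SE 0.11) and Trav14 (-0.91, SE 0.19) fell short of the fold limit.

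Within CD8 cells Trav4-4-dv10 was higher in the Ccl5-high class. It was at 5.65, 4.84, 2.28 and 4.13 CPM in Ccl5-high and 0.657, 1.46, 1.15 and 0.456 in Ccl5-low cells, without overlap (log2 fold change 1.98, SE 0.37, edgeR adjusted p = 0.0013). It was the only call among 7 segments tested, where 16.6% of 10199 genes were called. The segment met the filter on low counts in the Ccl5-high libraries alone, the class in which it is high. This call therefore does not support a difference, and the share of segments called was not above that of all genes.

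Use was spread over many segments in every class. Its evenness was taken as the effective number of segments, the inverse of the chance that a pair of cells shares a segment. In CD4 Nkg7-high cells the effective number was 26.4 and 42.2 in control and 17.1 and 19.2 in knockdown libraries (means 34.3 ± 11.1 and 18.1 ± 1.49, SD, n = 2 each). The ratio of 0.529 had the smallest possible exact permutation p, 0.33. In CD8 Ccl5-high cells it was 22.3 ± 1.22 in control and 20.8 ± 3.20 in knockdown libraries (SD, n = 2 each). Here the ratio was 0.934 (exact permutation p = 0.667). The difference in CD8 cells was within the spread between libraries. Ccl5-high cells had a lower effective number than Ccl5-low cells in 4 of 4 libraries (21.5 ± 2.16 against 29.1 ± 2.85, SD, n = 4 each), with p = 0.12 in the exact permutation test of signs within libraries, again the smallest possible. For Nkg7-high against Nkg7-low CD4 cells the ratio was 0.782 (exact permutation p = 0.5), and Nkg7-high cells were lower in 3 of 4 libraries.

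Trav1 and Trav11 belong to semi-invariant receptors. Trav1, with 59 UMIs, was found in 44 cells of the 5 classes, and none of these cells had a UMI of Traj33, its partner in MAIT cells, or of Zbtb16, the factor that marks MAIT and NKT cells. Both genes had at most 2 UMIs in the CD4 or the CD8 cells of any library. Their absence therefore does not show whether the Trav1 cells are MAIT cells. Trav11 was found in 1 cell of the classes and in 2 other kept cells, of which 1 had a Zbtb16 UMI, and Trav11d in none. The 90-base windows of Trav11 and Trav11d were unique in 0.495% and 0% of cases, so these segments were hardly countable here and their low counts do not measure NKT cells. The summed NKT markers reached at most 4.95 CPM in any class and library.

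The position of the segments along the locus differed little. The median Trav-positive cell used a segment 585 to 732 kb before Trac in every class and library. Copies without a letter made up 58.6% to 86.7% of counted segment use, with the highest share in control 1 CD4 Nkg7-high cells and the lowest in knockdown 1 CD8 Ccl5-high cells. Only 19 of the 39 segments with the letter d and 16 of the 34 with the letter n had any UMI. Both the positions and the shares therefore leave out copies that could hardly be counted, and they do not measure the use of all copies.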

How the data were processed

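RNA UMI counts per gene and barcode of 4 libraries were used as deposited by the authors, who aligned the reads to mm10 with STAR in Cell Ranger and filtered cells in Seurat 4.0.0, per the labels and methods. The matrices are raw UMI counts without normalization, for called barcodes and for all barcodes. The surface tag counts deposited with them served only as an alternative for lineage. Barcodes were kept if they had between 200 and 3000 genes detected and no more than 5% of UMIs from mitochondrial genes, and the barcodes with the highest doublet scores were removed at a rate of 0.8% per 1000 barcodes. A count was that of UMIs assigned to a Trav row, with no assembly of receptors, and reads shared by near copies may have been dropped or split. UMIs were summed per class and library and tested with edgeR 4.0.16 (quasi-likelihood test, TMM factors, filterByExpr) in R 4.3.3 over all genes. Fits between the groups used the libraries of both groups in 1 class, and fits between classes had the library as a block. A segment was called if its log2 fold change was at least 1 in size and its p-value, adjusted by Benjamini and Hochberg, was under 0.05. DESeq2 1.42.0 was an alternative. The fits were tested on simulated data. Single values were compared with exact two-sided permutation tests, for which p cannot go below 0.33 between the groups and 0.12 within libraries. Floors for a count of 0 are 3 counts over a group and cover counting error only.

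Named segments are the 10 with the most UMIs, up to 5 called segments in each direction whose libraries did not overlap, and Trav1, Trav11 and Trav11d. Trav7d-4, Trav12-3, Trav6n-6, Trav6-3, Trav6-5, Trav9-4, Trav13d-1, Trav13d-4, Trav16d-dv11 in single classes, Trav14-3 and Trav14n-3 were named after their values were seen. The members and lists were chosen with earlier results of these data known. Same-numbered libraries did not deviate together (correlations of -0.00904 to 0.0104 over genes), so the numbers pair nothing.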

Additional observations from a re-analysis of the deposited data

Results flagged for a closer look

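The change with knockdown was compared between classes by the interaction of class and group in edgeR, a test added after the data were seen. The fitted log2 differences rest on libraries with no UMI in most cases and give no size of effect. The filter of this test was open to segments through the libraries in which they are high, as for Trav16 and Trav13n-1. The calls therefore do not support a difference. Between CD4 Nkg7-high and CD4 Nkg7-low cells 4 of 13 segments were called, where 0.902% of genes were. The differences were 9.67 for Trav16 (edgeR adjusted p = 6.06e-06) and 8.82 for Trav13n-1 (adjusted p = 0.029), both raised in Nkg7-high cells. They were -7.74 for Trav16n (adjusted p = 0.000647), which rests on 20 UMIs in 2 Nkg7-high cells of control 2, and -7.08 for Trav13-1 (adjusted p = 0.0212), found in 2, 2, 0 and 0 Nkg7-high cells.

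Between CD8 Ccl5-high and CD8 Ccl5-low cells 2 of 22 segments were called, where 1.53% of genes were. Trav8d-2 differed by 3.07 (edgeR adjusted p = 0.0153) and Trav13-2 by 7.29 (edgeR adjusted p = 0.0313). Trav13-2 was in 12, 12, 3 and 4 Ccl5-low cells, and in Ccl5-high cells in 0, 0, 12 and 19. Between Foxp3 and CD4 Nkg7-low cells edgeR called none of 6 segments, with 1 at an unadjusted p under 0.05, and DESeq2 was not run for this test.

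Between CD4 Nkg7-high and CD8 Ccl5-high cells 6 of 17 segments were called, where 0.54% of genes were. Of these, Trav7d-3, Trav14-1 and Trav12-3 had entered the CD8 fit through the knockdown libraries, in which they are high, so the count does not support a difference. Trav16 differed by 7.95 (edgeR adjusted p = 0.00232), and the fitted change was higher in CD4 cells. For the others it was lower in CD4 than in CD8 cells, with differences of -9.26 for Trav7d-3, -8.44 for Trav16n, -8.22 for Trav13-1, -6.23 for Trav14-1 and -5.89 for Trav12-3 (edgeR adjusted p = 0.00332, 0.000535, 0.00412, 0.0254 and 0.0382). Trav16n and Trav13-1 had no UMI in knockdown CD4 Nkg7-high cells, and the change of Trav16n in CD8 Ccl5-high cells was not called (log2 fold change 0.44, edgeR adjusted p = 0.227).

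Of 7115 kept cells that fell in no class, 2292 had a Trav UMI (32.2%), with 33.1%, 35.9%, 29.1% and 29.4% in the libraries. None of 177 macrophage-marked cells had one, but their median depth was lower, at 1903 against 7214 UMIs. The cells in no class had no UMI of Cd4, Cd8a or Cd8b1, or had both, or too few of Cd8a and Cd8b1.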

How the results depend on the processing

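The knockdown calls of Trav16 and Trav13n-1 in CD4 Nkg7-high cells and of Trav7d-3 and Trav8d-2 in CD8 Ccl5-high cells held in all 19 alternatives that gave a value (log2 fold changes from 2.47 to 8.60 for Trav16 and from 1.68 to 8.16 for Trav13n-1, both lowest with tags), and that of Trav13-2 in 17 of 17. Trav13-4-dv7 lost its call in 1 of 17 (DESeq2 without independent filtering, adjusted p = 0.0827). Over all named segments 330 values kept their call, 42 lost it and none changed direction. DESeq2 with its own filtering gave no adjusted p for Trav rows in 4 of the 5 comparisons between groups. The replicate block left 3, 1, 0, 9 and 0 calls in CD4 Nkg7-high, CD4 Nkg7-low, Foxp3, CD8 Ccl5-high and CD8 Ccl5-low cells, as without it. Where a value moved, the cause was not tested, other than fewer or more rows and libraries tested.

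Calls in CD4 Nkg7-high cells (3) became 6 with no filter on low counts and 1 by family, and 2 to 4 when each library was left out in turn. In CD4 Nkg7-low cells the 1 call became 0 at the stricter Otsu doublet threshold, with lineage from tags, with DESeq2 without independent filtering, with Trav rows scaled to summed Trav and by family, 2 with up to 10% mitochondrial UMIs, with Foxp3 cells included or with Nkg7 at 6, and 4 without the filter, and 0 to 1 without 1 library, being 0 without either control library. Trav14-2 itself lost its call in 3 of 4 fits without 1 library, and with up to 2 Cd8 UMIs in CD4 cells the single call was another segment, called lower. In Foxp3 cells none became 1 by family. In CD8 Ccl5-high cells 9 became 3 with DESeq2 without independent filtering and 4 to 6 without 1 library. In CD8 Ccl5-low cells 0 became 1 with up to 10% mitochondrial UMIs, with no upper limit on genes and by family, 2 with CD8 from 1 UMI, with Ccl5 at 40 and with no filter, and 0 to 1 without 1 library, being 1 without knockdown 1.

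Between CD8 and CD4 cells 9 became 4 with CD8 from 1 UMI and with Trav rows scaled to summed Trav, 3 with DESeq2 (with or without independent filtering) and without the library block, 19 with no filter, 0 by family and 6 to 8 without 1 library. Between the Nkg7 classes 2 became 17 with no filter. Between the Ccl5 classes 1 became 0 at the Otsu threshold, 5 with up to 10% mitochondrial UMIs, 3 with no upper limit on genes or CD8 from 1 UMI, 7 with no filter, 2 with no fold limit or no library block, and 2 to 3 without 1 library (2 without control 1 or knockdown 2, 3 without control 2 or knockdown 1). Between Foxp3 and Nkg7-low cells 1 became 2 with tags, 3 with no filter and 1 to 2 without 1 library, being 2 without control 1. The ratio of effective numbers in CD8 Ccl5-high cells turned from 0.934 to 1.01 with tags and to 1.04 without knockdown 1, with a range of 0.832 to 1.04 without 1 library.

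Of 5030 Trav-positive cells 3018 had a single UMI. If the libraries of a group are lanes of a pool, knockdown and pool cannot be told apart.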
